A study of Arabidopsis thaliana with 35 samples.

Results

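The comparison set 4 libraries of an *XVE:EPFL4* line against 4 libraries of WT before any estradiol was given, and asked what was already different at that point. All 8 libraries, which the labels call 0 h or uninduced, were made from whole seedlings of *Arabidopsis thaliana* at 7 d. For *ER* induction the methods describe 3 h on mock plates, and they do not mention the *XVE:EPFL4* line. The move to mock plates and the time on them are thus uncertain for the uninduced values and for every change between 0 h and 3 h. The genotypes are labelled as wild type transformed with *XVE:EPFL4* and as wild type (WT). The members were all genes with enough reads to be tested in these 8 of the series' 35 libraries, which were 19795 of 32833 genes. The same genotypes were also sequenced after 3 h and 8 h on 5 mM estradiol, and the third genotype of the series, the *er* mutant carrying *XVE:ER*, was sequenced at the same times. The labels give the *XVE:EPFL4* line no promoter, insertion site or number of independent lines, so that effects of 1 insertion and of the construct cannot be told apart. Nothing in the labels gives an extraction day or plate, so that genotype and any difference in growth, handling or harvest between the groups cannot be told apart.

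EPFL4 is a small secreted cysteine-rich peptide of the EPF/EPFL family, and the ERECTA family of leucine-rich repeat receptor kinases (ER, ERL1 and ERL2) perceives peptides of this family. The receptors signal through a MAP kinase cascade (YDA, MKK4/MKK5, MPK3/MPK6) and are best known for control of stem growth, stomatal spacing and the vascular cambium. XVE is a chimeric transcription factor that becomes active once it binds estradiol. The uninduced comparison asks whether the transgene was already transcribed without estradiol, and what else differed from WT at that point.

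Total counts per library were 18242634 to 20824044 in *XVE:EPFL4* and 18224765 to 22490837 in WT. On the first principal component, which took 41.4% of the variance, all 4 *XVE:EPFL4* libraries lay on one side and all 4 WT libraries on the other. The second component (18.3%) set *XVE:EPFL4* replicate 3 and WT replicate 1 apart from the other 6 libraries. Sums of organ markers overlapped between the groups. Root markers (*CASP1*, *CASP2*, *SCR*, *SHR*, *COBL9*, *EXPA7*) summed to 99.3 to 118 CPM (counts scaled to library size) in *XVE:EPFL4* and 105 to 124 CPM in WT, and 5 photosynthesis markers summed to 30025 to 38579 CPM in *XVE:EPFL4* and 29762 to 38972 CPM in WT. Seed storage genes were at most 0.2 CPM in sum in *XVE:EPFL4* and 0.216 CPM in WT. None of the root, photosynthesis or xylem markers passed the test in edgeR with all libraries of both groups. Chloroplast-encoded genes took 0.0264 to 0.037% of counts in *XVE:EPFL4* and 0.0355 to 0.0562% in WT.

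*EPFL4* itself, the gene carried by the transgene (chromosome 4, 8439899 to 8440901, TAIR10.1), was higher in the uninduced line than in WT. It had 59, 54, 28 and 47 counts in the *XVE:EPFL4* libraries, against 13, 14, 10 and 16 counts in WT. In CPM these were 3.40, 2.7, 1.36 and 2.40 in *XVE:EPFL4* and 0.755, 0.617, 0.540 and 0.796 in WT. The groups did not overlap, and replicate 3 of *XVE:EPFL4* was the lowest of its group. The means were 2.46 ± 0.851 CPM in *XVE:EPFL4* and 0.677 ± 0.119 CPM in WT (SD, n = 4 each), a 3.64-fold difference (log2 fold change 1.86, SE 0.31, adjusted p = 0.00227 by edgeR's quasi-likelihood test; exact permutation p = 0.0286, the smallest that 4 against 4 libraries allow). Uninduced *er XVE:ER* seedlings had 0.629 CPM on average. Reads of the transgene and of the native locus were counted together and cannot be told apart.

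The excess was small beside the induced level. Uninduced *XVE:EPFL4* exceeded WT by 1.79 CPM, whereas the same line had 982 to 1724 CPM after 3 h and 810 to 2973 CPM after 8 h on estradiol, with WT at most 1.1 CPM at either time. The uninduced level was 0.191% of the 3 h level, and induction raised the transcript 524.5-fold by 3 h and 710.7-fold by 8 h over the uninduced line. *EPFL4* ranked 352nd by adjusted p among all genes tested. Among the genes called higher in the uninduced line it ranked 71st by log2 fold change. The plot of *EPFL4* in each library shows the uninduced step beside the induced one.

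**Figure D1:**
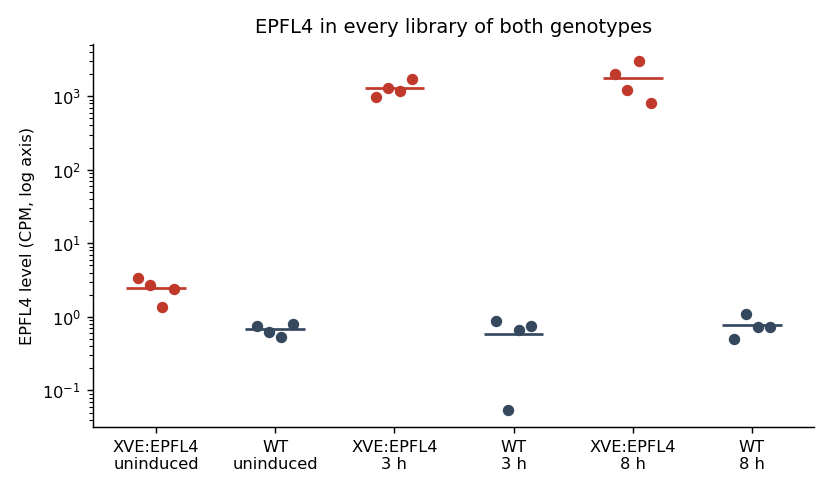
*EPFL4* in CPM (log axis) in each library of *XVE:EPFL4* (red) and WT (blue), without induction and at 3 h and 8 h of it; points are libraries and lines are group means. Uninduced *XVE:EPFL4* sits at 1.36 to 3.40 CPM and WT at 0.540 to 0.796 CPM.

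Genes for related peptides and for the receptors were not called. Of the other EPF/EPFL genes, 7 were tested and none passed. *EPFL2* came nearest in size among those with separated groups, at 2.08, 2.1, 1.40 and 1.69 CPM in *XVE:EPFL4* against 2.79, 2.47, 2.48 and 2.39 CPM in WT (log2 fold change −0.46, SE 0.20, adjusted p = 0.172 by edgeR). The stomatal peptides *EPF1* and *EPF2*, which limit stomatal number, had log2 fold changes of −0.33 and −0.50 (edgeR adjusted p = 0.539 and 0.337). *EPFL9*, which promotes stomata, was 0.16 (adjusted p = 0.618) and *EPFL1*, *EPFL5* and *EPFL6* lay between −0.15 and 0.31. *EPFL3*, *EPFL7* and *EPFL8* were too low to be tested.

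*ER* had 94.5, 88.6, 89.0 and 90.7 CPM in *XVE:EPFL4*, against 68.1, 84.1, 69.2 and 82.2 CPM in WT. All 4 libraries of the line were above all 4 of WT, yet the difference (log2 fold change 0.27, SE 0.09) missed the threshold in edgeR (adjusted p = 0.0652) and passed it with DESeq2 (adjusted p = 0.0402). *ERL1* and *ERL2* differed by −0.14 and −0.09. Among coreceptors, *SERK1*, *SERK2*, *BAK1*, *SERK4* and *TMM* were not called, and *SOBIR1*, a receptor kinase of the immune system, was higher (65.6, 58.7, 36.9 and 65.1 CPM in *XVE:EPFL4*, against 23.9, 26.3, 36.0 and 38.2 CPM in WT; log2 fold change 0.88, adjusted p = 0.00886 by edgeR), with the line's replicate 3 inside the WT range. It shares its position with 2 other annotated genes, and the strand setting of the counts is not stated.

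Downstream of the receptors, transcripts of 2 of 5 MAP kinase cascade genes rose in the uninduced line, where 5.93% of all genes were called higher. *MPK3*, a kinase used by ERECTA signaling and by immune receptors alike, had 147, 126, 121 and 118 CPM in *XVE:EPFL4*, against 64.6, 51.0, 63.5 and 71.1 CPM in WT (log2 fold change 1.05, SE 0.11, adjusted p = 7.32e-05 by edgeR). *MKK4*, which phosphorylates it, had 19.5, 20.5, 20 and 21.0 CPM in *XVE:EPFL4*, against 13.1, 13.5, 11.5 and 16.2 CPM in WT (0.59, SE 0.10, adjusted p = 0.00329). The groups did not overlap for either gene. *YDA*, *MKK5* and *MPK6* were not called (0.13, 0.16 and −0.12). In the fit over all 35 libraries *MPK3* lost its call and *MKK4* kept it.

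Across the transcriptome 1965 of the 19795 genes tested (9.93%) were called at an adjusted p under 0.05. Of these, 1174 (5.93% of genes tested) were higher and 791 (4.00%) lower in *XVE:EPFL4*. The groups did not overlap in CPM for 3158 genes (16.0%), 1740 of them called. The median log2 fold change of all genes was −0.000587, and 299 called genes exceeded 1 while 114 were under −1. In bulk seedlings, fewer or more cells of a type and less or more RNA per cell cannot be told apart. The number of calls depended on single libraries. It was 1166 without WT replicate 3, 1186 without *XVE:EPFL4* replicate 2, 1250 without *XVE:EPFL4* replicate 1 and 1286 without WT replicate 4, and between 1799 and 1879 without any 1 of the other libraries. When the spread was estimated over all 35 libraries, induced ones included, 396 genes were called, 391 of them among the 1965. The p-values measure the spread between these libraries, and nothing beyond the replicate numbers in the labels says that they came from separate plates or sowings.

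**Figure D2:**
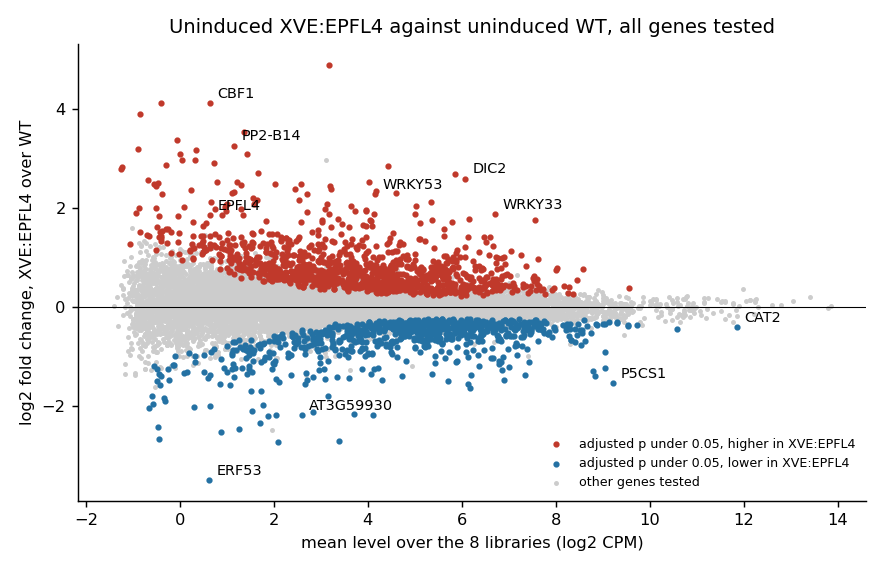
Log2 fold change of *XVE:EPFL4* over WT, both uninduced, against mean level over the 8 libraries (log2 CPM) for each of the 19795 genes tested; red points (1174) are higher and blue points (791) lower in *XVE:EPFL4* at an adjusted p under 0.05. *EPFL4* lies among many genes of equal or larger difference.

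Rises included transcripts of rapid stress responses, those that touch, wounding, cold or microbial patterns raise within minutes in *Arabidopsis*. From the list of touch and early stress genes, 4 of 5 rose (median 1.00, against −0.000587 for all genes), where 5.93% of all genes were called higher. *TCH2*, a calmodulin-like protein first found by touch, had 94.6, 85.9, 80.3 and 71.9 CPM in *XVE:EPFL4*, against 44.5, 32.0, 41.2 and 49.97 CPM in WT (log2 fold change 1.00, SE 0.12, adjusted p = 0.000268 by edgeR). *WRKY40* (1.69), *ZAT12* (1.33) and *TCH3* (0.82) were the others, and *TCH4*, a cell wall enzyme, was not called (0.64, adjusted p = 0.0934), although its groups did not overlap. No library of *XVE:EPFL4* overlapped with WT for any of the 5, where 16.0% of all genes had no overlap. With the spread taken over all 35 libraries none of the 5 was called, and 4 to 5 were when single libraries were left out. Without replicate 4 of both groups 3 were called.

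Families of such regulators were then counted, each limited to genes whose symbol or synonym is the family name with a number. These families, and the cell cycle, abscisic acid and dark-inducible lists below, were put together after values had been seen, so their counts describe and do not test, and some genes belong to 2 lists. WRKY factors, which act in defense, gave 8 rises and 2 falls among 57 tested (median 0.06). ERF factors of the ethylene response family gave 8 rises and 1 fall among 21 (median 0.14). ZAT zinc finger repressors gave 5 rises among 6 (median 1.48), calmodulin-like proteins 4 among 12 (0.42) and PUB ubiquitin ligases 4 among 21 (0.18). The share of all genes called higher was 5.93%. The fit over 35 libraries left 3 WRKY, 1 ZAT and 2 PUB rises and none of the ERF or calmodulin-like ones.

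The WRKY gene with the smallest p of the whole comparison was *WRKY53* (chromosome 4, 12392370 to 12393982), a regulator of senescence and defense. It had 32.3, 29.9, 29.5 and 27.1 CPM in *XVE:EPFL4*, against 5.69, 5.20, 6.8 and 7.06 CPM in WT (log2 fold change 2.28, SE 0.11, adjusted p = 5.66e-07 by edgeR). *WRKY33*, which drives camalexin synthesis against fungi, had 167, 162, 172 and 153 CPM in *XVE:EPFL4*, against 53.2, 30.7, 42.8 and 53.0 CPM in WT (1.88, SE 0.14, adjusted p = 1.26e-05). The groups did not overlap for either gene. *WRKY53* overlaps the annotated gene *3xHMG-box2*. *WRKY46* and *WRKY70* rose by 2.39 and 1.63 (adjusted p = 0.000287 and 0.000188), and the falls were of *WRKY6* (−0.41) and of *WRKY49* (−1.57), whose groups overlapped.

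Among the ERF and ZAT genes, *ERF11*, a repressor of the ethylene pathway, had 14.4, 13.0, 15.9 and 10.6 CPM in *XVE:EPFL4*, against 3.20, 2.07, 3.62 and 5.02 CPM in WT (log2 fold change 1.98, SE 0.21, adjusted p = 0.000123 by edgeR). *STZ* (also called ZAT10), a salt and cold induced repressor, had 52.0, 51.5, 49.8 and 48.6 CPM in *XVE:EPFL4*, against 13.8, 6.96, 15.8 and 19.4 CPM in WT (1.88, SE 0.21, adjusted p = 0.00014). Neither gene overlapped between the groups, and the spread was larger in WT than in the line for *STZ*. *ERF5* and *ERF4* rose by 1.66 and 1.02, *ZAT7* by 2.48, and the calmodulin-like genes *CML37* and *CML23* by 2.32 and 1.40, all without overlap. In uninduced *er XVE:ER*, which shares the WT libraries as its control, *WRKY53* had 10.9, 5.46, 4.11 and 10.2 CPM and *STZ* 25.6, 13.2, 14.3 and 27.1 CPM.

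Regulators of the cold response rose as well. *CBF1*, an activator of cold response genes, had 3.40, 3.05, 2.37 and 3.01 CPM in *XVE:EPFL4* (49 to 61 counts), against 0.232, 0.0882, 0.108 and 0.249 CPM in WT (2 to 5 counts). The fitted difference was 4.12 on the log2 scale (SE 0.33, edgeR adjusted p = 1.72e-05), a size that depends on the prior count at so few WT reads. Its neighbor *CBF2* had 11.5, 12.7, 10.7 and 5.31 CPM in *XVE:EPFL4*, against 1.63, 1.28, 2.05 and 2.34 CPM in WT (2.48, adjusted p = 0.000124). Of their targets, *KIN1* rose (1.21, adjusted p = 0.0133), whereas *COR15A* (0.54), *RD29A* (−0.42) and *RD29B* (−1.05) were not called.

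**Figure D3:**
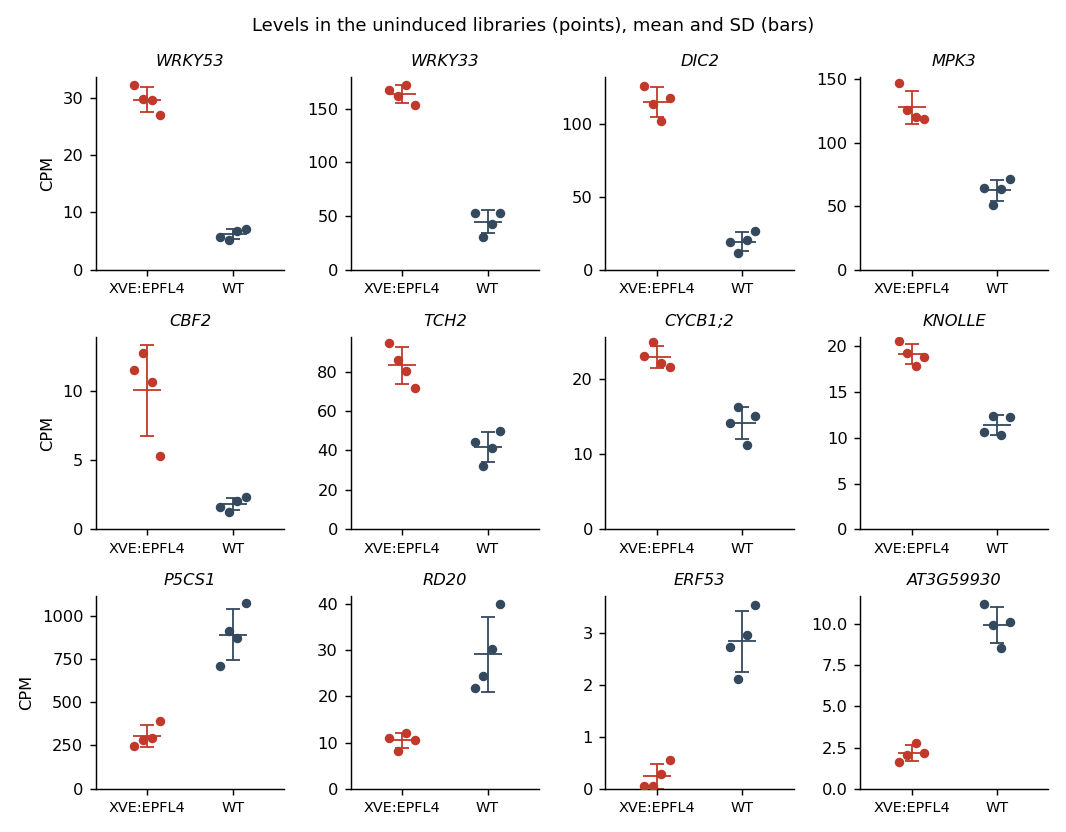
Levels (CPM) of 12 genes in the 4 uninduced *XVE:EPFL4* libraries (red) and the 4 uninduced WT libraries (blue); points are libraries, bars are mean and SD. The groups do not overlap for any of the 12: 8 are higher and 4 (*P5CS1*, *RD20*, *ERF53*, *AT3G59930*) lower in *XVE:EPFL4*.

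A further 3 genes of this kind are shown with the 250 bases before their annotated start, because the letters CGCGT stand there. CGCGT is the core that calmodulin-binding CAMTA activators recognize in rapid stress genes. The letters CGCGT, on either strand, were found in the upstream 250 bases of 20.4% of the 299 genes called with a log2 fold change over 1 and of 12.6% of the 1174 called higher, against 5.53% of those called lower and 7.34% of all genes tested. The W-box core TTGACN, bound by WRKY factors, stood at 54.2% of the 299 and 47.9% of those called higher. It stood at 47.2% of those called lower and 45.0% of all genes tested. The sequences were read from the TAIR10.1 genome of RefSeq, 5′ to 3′ toward the gene, with CGCGT (or ACGCG, its reverse complement) in capitals:
DIC2, chr4:12686209-12686458, plus strand: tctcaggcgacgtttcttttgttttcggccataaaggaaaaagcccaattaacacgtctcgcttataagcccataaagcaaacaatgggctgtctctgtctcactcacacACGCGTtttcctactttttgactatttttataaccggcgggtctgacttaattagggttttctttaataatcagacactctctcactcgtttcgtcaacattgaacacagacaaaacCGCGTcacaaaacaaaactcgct
PP2-B14, chr1:21063048-21063297, minus strand: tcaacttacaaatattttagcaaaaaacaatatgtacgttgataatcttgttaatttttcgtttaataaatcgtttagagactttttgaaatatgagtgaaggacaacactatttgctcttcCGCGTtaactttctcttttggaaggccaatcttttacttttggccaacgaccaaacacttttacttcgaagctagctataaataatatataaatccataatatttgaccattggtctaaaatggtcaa
AT4G29780, chr4:14579313-14579562, plus strand: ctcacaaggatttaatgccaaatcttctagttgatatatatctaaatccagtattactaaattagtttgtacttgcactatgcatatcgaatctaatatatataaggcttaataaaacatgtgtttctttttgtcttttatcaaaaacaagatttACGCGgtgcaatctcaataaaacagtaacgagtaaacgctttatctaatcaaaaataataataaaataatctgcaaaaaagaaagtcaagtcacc
A match is a description of letters and not a binding site.

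*DIC2*, a mitochondrial dicarboxylate carrier, holds 3 matches, of which a pair overlap. It had 126, 114, 102 and 118 CPM in *XVE:EPFL4*, against 18.8, 11.1, 20.6 and 26.7 CPM in WT (log2 fold change 2.60, SE 0.19, adjusted p = 9.92e-06 by edgeR). *PP2-B14*, an F-box protein related to phloem lectins, had 3.64, 3.35, 5.18 and 3.98 CPM in *XVE:EPFL4*, against 0.407, 0.397, 0.324 and 0.547 CPM in WT (3.26, SE 0.25, adjusted p = 1.42e-05). *AT4G29780*, of unknown function and named after its values were seen, had 133, 117, 86.6 and 66.2 CPM in *XVE:EPFL4*, against 13.5, 13.0, 14.5 and 22.1 CPM in WT (2.69, SE 0.22, adjusted p = 1.99e-05). None of the 3 overlapped between the groups.

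Of the other large rises, *AT3G22235* led the list but was uneven. It had 17.4, 4.44, 2.37 and 45.7 CPM in *XVE:EPFL4*, against 0.755, 0.573, 0.324 and 0.696 CPM in WT (log2 fold change 4.89, SE 0.89, adjusted p = 0.00396 by edgeR). The high-affinity potassium transporter *HAK5*, known from potassium shortage, had 5.65, 8.09, 2.52 and 2.66 CPM in *XVE:EPFL4*, against 0.232, 0.353, 0.594 and 0.447 CPM in WT (3.53, adjusted p = 0.000307). *AT1G47130*, an uncharacterized protein, was the only gene with under 3 counts in every library of one group (2, 0, 2 and 1 in WT) and at least 10 in every library of the other (29, 22, 13 and 15 in *XVE:EPFL4*). *MYB15*, which acts upstream of the CBF genes and of lignin in immunity, rose by 3.10, and *UMAMIT19*, *AT5G11140*, *AT4G14450* and *AT5G52760* rose by 3.18 to 4.13 from at most 0.661 CPM in WT.

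Among genes of high level, the myrosinase *TGG2* had 568, 474, 431 and 452 CPM in *XVE:EPFL4*, against 204, 347, 287 and 300 CPM in WT (log2 fold change 0.77, adjusted p = 0.00399 by edgeR). *AT4G32020* rose by 0.55. The rises of *AT2G10940* (0.40), *HSPRO2* (0.41) and *PGK* (0.28) were lost when any of several single libraries was left out.

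Falls included abscisic acid (ABA) and osmotic response genes. Of 13 tested, 9 fell and none rose (median −0.83), where 4.00% of all genes were called lower. Leaving out single libraries left 6 to 10 of them called, and the fit over 35 libraries 1. *P5CS1*, the rate-limiting enzyme of proline synthesis, had 245, 283, 294 and 393 CPM in *XVE:EPFL4*, against 707, 912, 871 and 1070 CPM in WT (log2 fold change −1.54, SE 0.15, adjusted p = 5.82e-05 by edgeR). *RD20*, a drought-induced caleosin, had 11.1, 8.24, 12.1 and 10.47 CPM in *XVE:EPFL4*, against 21.8, 24.4, 30.2 and 40.02 CPM in WT (−1.46, SE 0.18, adjusted p = 0.00023). The highest library of *XVE:EPFL4* was below the lowest of WT for both. In uninduced *er XVE:ER*, *P5CS1* had 1017, 1052.5, 795 and 45.0 CPM, so that its replicate 4 was lower than any library of *XVE:EPFL4*.

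*ERF53*, a drought-induced activator, fell most. It had 1, 1, 6 and 11 counts in *XVE:EPFL4*, against 47, 48, 55 and 71 counts in WT (log2 fold change −3.49, SE 0.44, adjusted p = 0.000344 by edgeR). The ABA-induced phosphatases *HAB1* and *HAI1*, which brake ABA signaling, fell by 0.84 and 1.34 on the log2 scale, and the dehydrin *RAB18* fell by 0.83 with overlapping groups. *ABI1*, *LEA14*, *COR47* and *KIN2* were not called (−0.11 to −0.30). The ABA-response element core ACGTGNC stood in the 250 bases upstream of 21.1% of genes called with a log2 fold change under −1 and 14.9% of those called lower, against 9.56% of all genes tested.

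Dark-inducible (DIN) genes, which rise when sugar is short, were lower as well, in 4 of 7, where 4.00% of all genes were called lower. The count was 2 without *XVE:EPFL4* replicate 1 or 2 or WT replicate 3 or 4, 7 without WT replicate 2, and 1 in the fit over 35 libraries. *DIN6*, an asparagine synthetase, had 122, 198, 261 and 427 CPM in *XVE:EPFL4*, against 574, 520, 797 and 785 CPM in WT (log2 fold change −1.39, SE 0.29, adjusted p = 0.00869 by edgeR). *DIN9* fell by 1.22 without overlap, while the groups overlapped for *DIN1* (−1.36) and *DIN4* (−0.65). *DIN2*, *DIN3* and *DIN10* were not called.

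Nutrient lists changed in parts. In the iron list 3 of 8 genes fell (median −0.63; 4.00% of all genes were called lower), all of them bHLH regulators of subgroup Ib that rise in iron shortage. *BHLH39* had 2.77, 5.69, 3.58 and 3.32 CPM in *XVE:EPFL4*, against 11.1, 11.5, 10.3 and 8.85 CPM in WT (log2 fold change −1.42, SE 0.19, adjusted p = 0.000534 by edgeR). *BHLH38* and *BHLH100* fell by 1.03 and 1.25, and both calls were lost without any of several libraries. The list kept 1 call without *XVE:EPFL4* replicate 1, 3 or 4 or WT replicate 3, 4 calls without *XVE:EPFL4* replicate 2 or WT replicate 1, and 1 in the fit over 35 libraries. The uptake genes *IRT1* (−0.47) and *FRO2* (−0.79) and the store *FER1* (−0.41) were not called. *SPX1*, a phosphate sensor gene, fell by 1.45 (adjusted p = 0.00668), and the nitrate transceptor *NRT1.1* rose by 0.83 (248, 238, 148 and 211 CPM in *XVE:EPFL4*, against 99.2, 120, 145 and 116 CPM in WT; adjusted p = 0.00396).

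The largest other falls were of low genes. *AT3G59930*, a defensin-like protein, had 1.62, 2.05, 2.81 and 2.15 CPM in *XVE:EPFL4*, against 11.2, 9.96, 8.53 and 10.1 CPM in WT (log2 fold change −2.18, SE 0.17, adjusted p = 1.33e-05 by edgeR). *MLO9*, of the mildew resistance family, fell by 2.46 (0.173 to 1.26 CPM in *XVE:EPFL4*, against 2.60 to 5.99 CPM in WT). *M17*, *AT1G78720*, *AT2G01422*, *PAP85*, *AT3G12900*, *AT1G23110* and *AT2G06002* fell by 1.98 to 2.72. Of these, *M17* was not called by DESeq2 (adjusted p = 0.142) or without *XVE:EPFL4* replicate 1, *PAP85* was lost without *XVE:EPFL4* replicate 1, 2 or 3 or WT replicate 3, and *AT1G23110* without *XVE:EPFL4* replicate 2 or WT replicate 3. At the high end, the photorespiratory catalase *CAT2* had 3700.2, 3082, 2772 and 3227 CPM in *XVE:EPFL4*, against 3971, 3856, 4938 and 4369 CPM in WT (−0.41, adjusted p = 0.031), and *UBQ10*, a polyubiquitin gene often used as a reference, fell by 0.43 (adjusted p = 0.011). *RPT2*, *SVR3* and *HDR* fell by 0.35 to 0.38. Except for *UBQ10*, these high-level calls were lost without WT replicate 3.

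A set of transcripts of dividing cells was higher in the uninduced line by a small and even step. B-type cyclins and CDKB kinases, the engine of entry into mitosis in plants, rose in 11 of 13 genes and none fell (median 0.66, the calls between 0.49 and 0.90), where 5.93% of all genes were called higher. Genes of the spindle, checkpoint and cell plate rose in 12 of 15 (median 0.69). DNA replication genes rose in 3 of 11 (median 0.24, with *MCM5*, *MCM6* and *TSO2* called) and the D3 cyclins, which act earlier in the cycle, in none of 3. The calls of *MCM5* and *MCM6* were lost without *XVE:EPFL4* replicate 1, 2 or 4 or WT replicate 1, 3 or 4, and 5 replication genes were called without WT replicate 2. Leaving out each library in turn left 7 to 11 and 9 to 11 calls in the first 2 of these lists, and the fit over 35 libraries left 3 and 7. Without replicate 4 of both groups 4 and 8 were called, and with a block for replicate number 9 and 9. 

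Of the mitotic genes, 3 are shown with the 250 bases before their start because AACGG stands there. AACGG is the core of the mitosis-specific activator element bound by MYB3R factors. On either strand, it was found in 17 of the 28 genes of both mitotic lists (60.7%), against 21.8% of all genes tested and 23.0% of genes called higher. Sequences are from TAIR10.1, 5′ to 3′ toward the gene, with AACGG (or CCGTT) in capitals:
KNOLLE, chr1:2711001-2711250, minus strand: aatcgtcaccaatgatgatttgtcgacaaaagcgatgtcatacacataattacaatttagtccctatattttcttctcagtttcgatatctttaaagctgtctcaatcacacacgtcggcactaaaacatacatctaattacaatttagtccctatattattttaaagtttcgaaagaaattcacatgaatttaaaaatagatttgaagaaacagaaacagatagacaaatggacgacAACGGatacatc
CYCB1;2, chr5:1861704-1861953, minus strand: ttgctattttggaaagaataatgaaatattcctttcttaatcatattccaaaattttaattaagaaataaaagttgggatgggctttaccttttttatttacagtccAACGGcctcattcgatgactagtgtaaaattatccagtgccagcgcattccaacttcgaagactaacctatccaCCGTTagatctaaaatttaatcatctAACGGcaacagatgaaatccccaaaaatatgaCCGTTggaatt
PLE, chr5:20964538-20964787, minus strand: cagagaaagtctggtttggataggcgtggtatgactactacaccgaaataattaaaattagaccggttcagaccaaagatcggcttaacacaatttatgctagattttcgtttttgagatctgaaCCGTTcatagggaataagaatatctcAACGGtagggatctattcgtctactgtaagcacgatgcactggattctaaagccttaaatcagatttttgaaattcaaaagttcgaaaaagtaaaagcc
These 3 windows hold 1, 4 and 2 matches in that order.

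*KNOLLE*, the syntaxin that fuses vesicles at the cell plate, had 20.5, 19.2, 17.9 and 18.9 CPM in *XVE:EPFL4*, against 10.6, 12.4, 10.3 and 12.3 CPM in WT (log2 fold change 0.76, SE 0.10, adjusted p = 0.000365 by edgeR). *TPX2*, a spindle assembly factor, had 17.1, 18.02, 15.7 and 15.2 CPM in *XVE:EPFL4*, against 7.73, 11.5, 9.13 and 10.2 CPM in WT (0.79, SE 0.12, adjusted p = 0.00163). *CYCB1;2* had 23.0, 24.9, 22.0 and 21.5 CPM in *XVE:EPFL4*, against 14.1, 16.2, 11.2 and 15.1 CPM in WT (0.71, SE 0.11, adjusted p = 0.00167). The groups did not overlap for any of these, nor for *PLE*, a microtubule bundler of the phragmoplast (17.0, 17.8, 17.1 and 14.3 CPM in *XVE:EPFL4*, against 7.21, 11.2, 8.86 and 10.04 CPM in WT). In uninduced *er XVE:ER* seedlings *KNOLLE* had 13.9, 16.5, 12.8 and 26.7 CPM and *CYCB1;2* 16.5, 18.05, 14.7 and 36.2 CPM, so that replicate 4 of that genotype was above every library of *XVE:EPFL4* and the other 3 were below every one. For *KNOLLE* all 4 were also above the WT range.

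Of 8 targets of the TDIF-PXY pathway, which maintains the cambium, *WOX4* and *LBD4* rose, where 5.93% of all genes were called higher. *WOX4*, which promotes cambial division, had 4.96, 5.04, 4.99 and 5.57 CPM in *XVE:EPFL4*, against 3.43, 3.88, 3.51 and 2.39 CPM in WT (log2 fold change 0.65, SE 0.17, adjusted p = 0.0247 by edgeR). *LBD4* had 10.8, 10.9, 12.0 and 10.4 CPM in *XVE:EPFL4*, against 8.54, 8.77, 7.18 and 6.56 CPM in WT (0.52, SE 0.12, adjusted p = 0.0157). Leaving out single libraries left 0 to 3 of the 8 called: *WOX4* lost its call without *XVE:EPFL4* replicate 1, 2 or 4 or WT replicate 3 or 4, and *LBD4* without WT replicate 3 or 4. Of 5 PXY receptor and TDIF genes, the peptide gene *CLE41*, a source of TDIF in phloem, rose by 0.40 (21.0, 20.12, 20.8 and 18.8 CPM in *XVE:EPFL4*, against 17.1, 15.8, 13.8 and 15.4 CPM in WT), and its receptor *PXY* was not called (0.14, adjusted p = 0.663). The call of *CLE41* was lost without WT replicate 3, and the fit over 35 libraries called none of both lists.

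None of 5 HD-ZIP III factors, 3 shoot meristem genes, 6 xylem markers, 6 root markers, 5 photosynthesis markers, 6 gene silencing genes and 11 core clock genes passed the test. The largest of these by list were *PHV* (0.18) and *REV* (0.17), *STM* (−0.57) and *KNAT1* (−0.29), *XCP1* (0.33) and *IRX3* (0.16), *SCR* (−0.24) and *COBL9* (−0.13), *CAB3* (0.36) and *LHCB2.1* (0.12), *AGO2* (0.22) and *DCL2* (0.18), and *PRR5* (−0.72) and *ELF3* (−0.29). With DESeq2, *SCR* and *CAB3* passed (adjusted p = 0.0275 and 0.0178). In edgeR, *SCR* passed without *XVE:EPFL4* replicate 4, and *CAB3* without *XVE:EPFL4* replicate 2 or WT replicate 1. Without *XVE:EPFL4* replicate 3 or 4, 1 clock gene was called lower. Among clock genes, the groups did not overlap for *PRR5*, *ELF3* and *TOC1* (−0.16), all lower in *XVE:EPFL4*, where 16.0% of all genes had no overlap. The dawn genes *CCA1* and *LHY* had log2 fold changes of −0.10 and 0.01. At 3 h all 11 had negative log2 fold changes (−0.93 to −0.12) with none called. Without WT replicate 4 at that time 5 were called lower (*CCA1* −1.05 and *LHY* −1.07 among them), where 2954 of all 20024 genes tested were called lower. The part of harvest time in the other results was not tested. Of 8 stomatal lineage genes only *POLAR*, a polarity protein, was called (0.76, lost without *XVE:EPFL4* replicate 1), and *SPCH*, *MUTE*, *FAMA* and *TMM* were not.

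Hormone and pigment lists were mixed. In the jasmonate list the repressor *JAZ1* rose by 0.81 (with overlap), while the biosynthetic enzyme *AOS* fell by 0.38 and the storage protein *VSP2* by 0.73. *PAD3*, the last step of camalexin synthesis, rose by 1.26 with overlapping groups, and the salicylate marker *PR1* was too low to be tested. *PR2*, also untested, had 5, 0, 1 and 148 counts in *XVE:EPFL4* and 0 to 1 counts in WT, so that a single library held nearly all of its reads. In the anthocyanin pathway *DFR* and *LDOX* rose by 0.77 and 0.66 and *CHS*, the first step, fell by 0.31. *ATHB2* and *IAA19*, which respond to shade and auxin, rose by 0.48 and 0.57, and of 4 heat shock genes *HSP17.6II* alone was called, lower by 0.87. The calls of *CHS*, *LDOX*, *PAD3*, *IAA19*, *ATHB2* and *AOS* were each lost when certain single libraries were left out, for *CHS* any 1 of 6 and for *ATHB2* WT replicate 3 or 4.

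**Figure D4:**
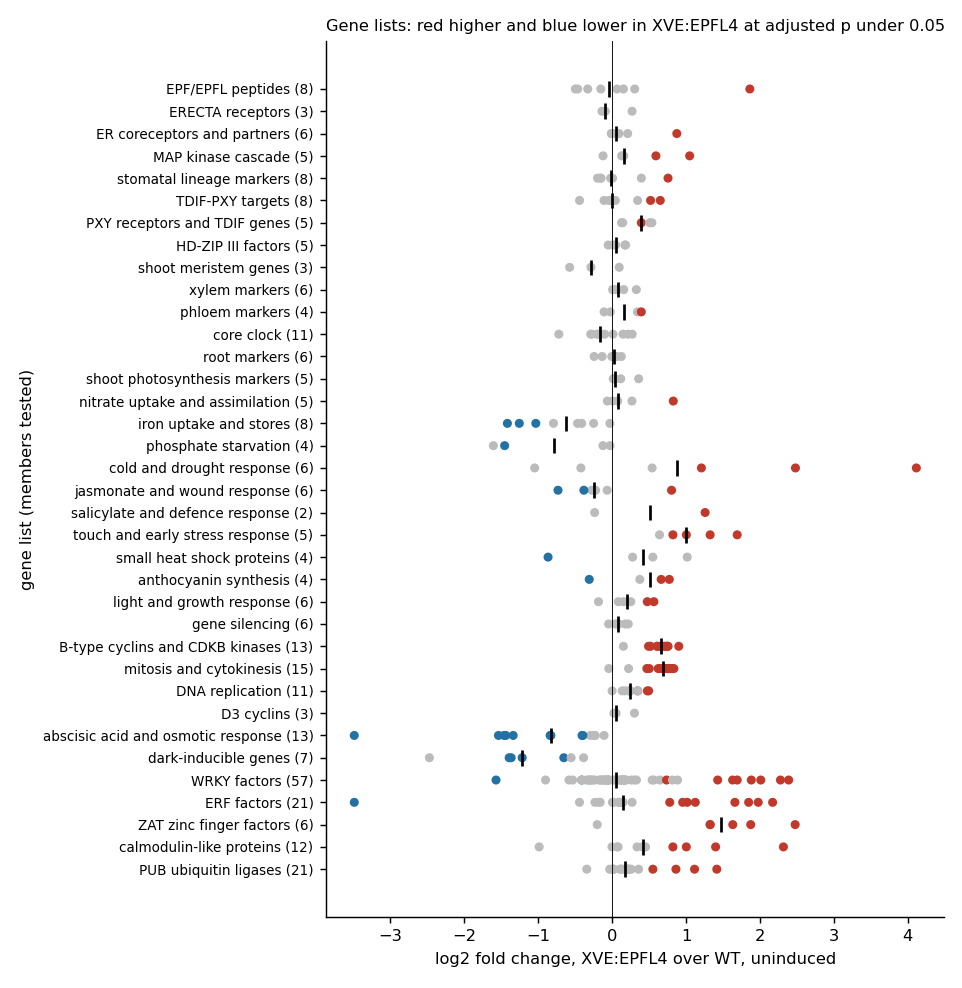
Log2 fold change of *XVE:EPFL4* over WT, uninduced, for the members of each gene list (number tested in parentheses); red points are called higher, blue points called lower and gray points not called, and the black mark is the list's median. The medians of the mitotic, ZAT and touch lists, among others, lie to the right of 0. Those of the abscisic acid, dark-inducible, iron and phosphate lists, among others, lie to the left.

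Of the 1951 called genes placed on the annotation, 1687 (86.5%) had 2 or more other called genes within 100 kb. The share for all genes was not computed, so this count describes only the called genes. Of those with the smallest p, the genes not yet described were *AT5G42530* (1.78), the putative chitinase *AT2G43590* (1.96), *AT3G04210* of the TIR-NBS class (2.31), *NUDT21* (1.38) and *PUB29* (1.42), all higher, and *AT3G19680* (−1.34), lower. *AT3G19680* had 27.5, 21.2, 21.4 and 23.1 CPM in *XVE:EPFL4*, against 56.5, 58.7, 60.8 and 62.3 CPM in WT (edgeR adjusted p = 7.4e-06).

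The same genotypes on estradiol, whose libraries are not shared with the uninduced ones, give the same comparison at later times. After 3 h, 1213 of 19863 genes (6.11%) were called between *XVE:EPFL4* and WT, 562 of them (2.83%) higher and 651 (3.28%) lower, and the groups did not overlap for 16.7% of genes. Of the 1965 genes called uninduced, 1937 were tested at 3 h and 270 were called in the same direction, which is 13.9% of them and 22.3% of the genes called at 3 h. A further 19 were called in the opposite direction. The sign was kept by 74.8%, against 61.3% of all genes tested at both times. After 8 h only *EPFL4* was called among 19868 genes (0.00503%) with edgeR, although 1358 had an unadjusted p under 0.05, and DESeq2 called 63. The groups did not overlap at 8 h for 4.02% of genes. The sign was kept by 64.2% of the genes called uninduced, against 56.5% of all genes.

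The median log2 fold change of genes called higher uninduced was 0.69 before induction, 0.15 at 3 h and 0.02 at 8 h. For genes called lower it was −0.51, −0.29 and −0.18. The difference between the genotypes at 3 h differed from that before induction (interaction term of edgeR) for 249 of the 1965, and for 419 of the 20326 genes fitted. Without WT replicate 4 at 3 h it did for 684 of the 1965, and for 2016 of 20477. At 8 h it did for 28, and for 32 of 20377. The 1965 genes were chosen for their uninduced difference and the interaction uses the same uninduced libraries, so that a smaller later difference, in this test and in the medians, is favored by that choice. Of the rapid stress genes, *TCH2*, *ZAT12*, *WRKY53* and *CBF2* passed at 3 h, and *WRKY40*, *TCH3*, *WRKY33* and *ERF11* did not. *CBF2* had 1.01 to 1.58 CPM in *XVE:EPFL4* at 3 h, against 0.683 to 17.97 CPM in WT, and its difference changed by −4.90 (adjusted p = 0.00576 by edgeR). For *WRKY53* the 3 h values were 13.4 to 20.5 CPM in *XVE:EPFL4* and 6.395 to 11.7 CPM in WT, still without overlap.

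The 3 h counts depended on single libraries. WT replicate 4 at 3 h had a mean distance of 91.7 to its group in log2 CPM, against 62.6 to 65.4 for the other 3. Without it 5243 of 20024 genes (26.2%) were called at 3 h, 2289 of them higher, and 700 of 1941 genes called uninduced kept their call and direction (36.1% of them, 13.4% of the genes called at 3 h), with 187 in the opposite direction. Without WT replicate 1 there were 1433 calls at 3 h. Without WT replicate 2 or 3, or without any 1 of the *XVE:EPFL4* libraries, 12 to 26 genes were called.

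All 13 B-type cyclins and CDKB kinases were higher in *XVE:EPFL4* before induction, at 3 h and at 8 h, with medians of 0.66, 0.58 and 0.39. For spindle, checkpoint and cell plate genes the medians were 0.69, 0.59 and 0.42, with 14, 14 and 15 of the 15 genes higher. At 3 h 5 and 9 members of these lists were called higher (2.83% of all genes), and 11 and 12 without WT replicate 4 (11.4% of all genes). *KNOLLE* had 21.3 to 24.2 CPM in *XVE:EPFL4* at 3 h, against 9.52 to 15.6 CPM in WT, and 19.2 to 25.4 CPM in *XVE:EPFL4* at 8 h, against 14.7 to 18.5 CPM in WT. ERF factors had medians of 0.14, −0.23 and 0.18, with none called at 3 h and 6 called lower without WT replicate 4. In that fit 2954 of all 20024 genes tested were called lower. Touch genes had medians of 1.00, −0.05 and −0.83, with none called at 3 h. Without WT replicate 4, 2 were called higher (11.4% of all genes) and 2 lower (2954 of all 20024 genes). Abscisic acid genes had medians of −0.83, −0.48 and 0.03, with 5 called lower at 3 h (3.28% of all genes). Without WT replicate 4, 10 were called lower (2954 of all 20024 genes). Differences between the lists were not tested. No gene of any of these lists was called at 8 h.

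**Figure D5:**
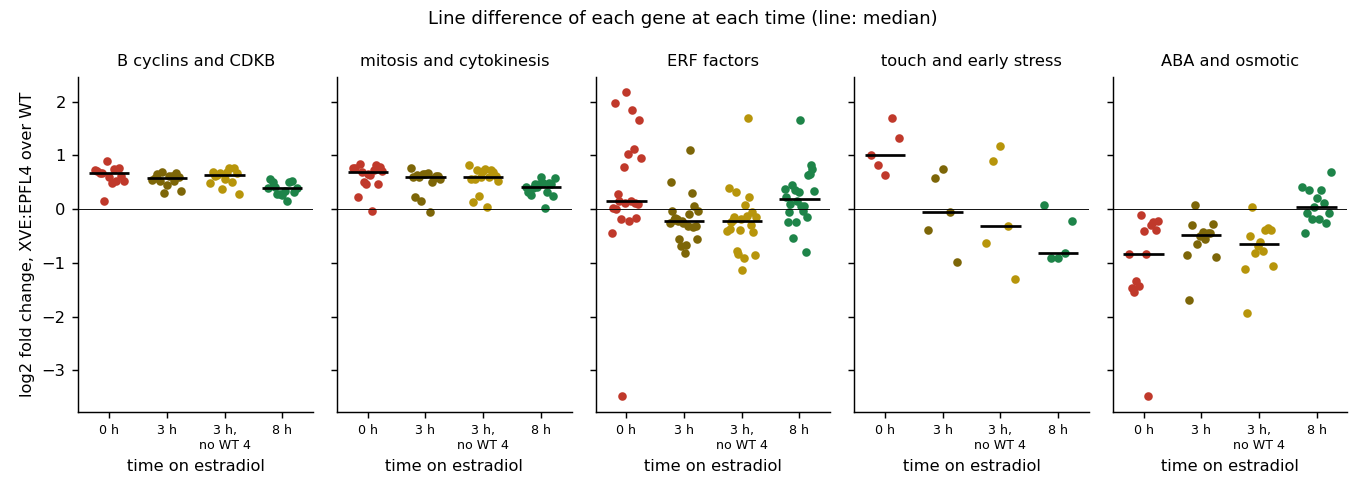
Log2 fold change of *XVE:EPFL4* over WT for members of 5 gene lists before induction (0 h), at 3 h, at 3 h without WT replicate 4, and at 8 h; points are genes and black lines medians. The medians of the mitotic lists lie above 0 at each time (0.66, 0.58 and 0.39 for B cyclins and CDKB), and touch genes go from a median of 1.00 before induction to −0.83 at 8 h.

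Of all 19795 genes, 55 (0.278%) had no overlap between the genotypes in the same direction at all 3 times. These were singled out after the values were seen. *EPFL4* is one of them, and 45 of the 55 were called uninduced, 32 higher and 13 lower. When libraries were scaled by total count alone, 39 genes were apart at all times and 33 of them called, of which 27 were among the 45. Many of the 32 are mitotic, among them *KNOLLE*, *PLE*, *HINKEL*, *BUBR1*, *MAD2*, *AUR1*, *DRP5A*, *UBC20*, *CDKB2;1*, *CDKB2;2*, *CYCB1;2*, *CYCB1;3* and *CYCB1;4*. *MKK6*, a MAP kinase kinase of cytokinesis, had 7.27, 7.49, 7.07 and 6.74 CPM in *XVE:EPFL4* before induction, against 3.14, 5.02, 3.67 and 4.38 CPM in WT (log2 fold change 0.82, adjusted p = 0.00445 by edgeR). AACGG stood upstream of 16 of the 32, against 21.8% of all genes tested and 23.0% of genes called higher. Genes such as *KNOLLE*, *PLE* and *CYCB1;2* also enter the count for the mitotic lists, so the 2 counts are not independent.

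Outside the cell cycle, *GH9B13*, a glycosyl hydrolase, had 67.1, 71.0, 50.6 and 50.8 CPM in *XVE:EPFL4* before induction, against 26.7, 43.7, 34.3 and 31.0 CPM in WT (log2 fold change 0.83 uninduced, 0.89 at 3 h and 0.63 at 8 h; uninduced adjusted p = 0.00382 by edgeR). Lower at all 3 times were *QQS*, an orphan gene of starch metabolism (−1.55, −1.52 and −1.99), *CYP81D11*, a cytochrome P450 of xenobiotic and jasmonate responses (−1.48, −1.10 and −0.81), and *MES9*, a methyl esterase (−0.71, −0.77 and −0.68). *QQS* had 0.692, 0.999, 1.31 and 0.613 CPM in *XVE:EPFL4* before induction, against 3.66, 2.38, 2.59 and 2.24 CPM in WT, and 5.99 CPM on average in uninduced *er XVE:ER*. *AT3G59930*, *DIN9*, *SQE6*, *TINY*, *CRK18* and *PAP26* were also among the 13.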

How the data were processed

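RNA-seq was made from whole seedlings of 3 genotypes before and after estradiol, and 8 of the 35 libraries enter the main comparison. Per the methods, the authors aligned reads with STAR 2.7.11a to TAIR10 and deposited raw counts per gene, with no normalization. The strand setting is not given in the sources used here, so that overlapping genes are uncertain. Groups were taken from the labels.

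Genes were kept by edgeR's filterByExpr (minimum count 10, minimum total 15), libraries were scaled by TMM, and groups were compared with edgeR 4.0.16 (R 4.3.3) by the quasi-likelihood F test with Benjamini-Hochberg adjustment over all genes tested at a threshold of 0.05. Fitted log2 fold changes used the default prior count of 0.125, log2 CPM values a prior count of 2, and the SE was taken as the fitted change over the root of its F statistic. CPM were counts divided by TMM-scaled library size. Libraries of the 3 h and 8 h comparisons were fitted apart, and interaction terms came from joint fits. Alternatives were DESeq2 1.42.0, its size factors, no filter, a joint fit of the 35 libraries, a block for replicate number, and leaving out libraries. The script was tested on simulated data.

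Genes named are *EPFL4* and its families, the 10 largest rises and falls among called genes without overlap, the 5 highest in each direction, genes present in 1 group alone, called genes with called neighbors within 100 kb, and called list members (or the 2 largest members where none was called). Other named genes were chosen after their values were seen. The members and lists were chosen with earlier results of these data known. Of 32833 gene IDs, 32548 matched the RefSeq table (TAIR10.1).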

Additional observations from a re-analysis of the deposited data

Results flagged for a closer look

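For 25 of 162 genes examined, the difference between *XVE:EPFL4* and WT changed between the uninduced libraries and 3 h by an interaction test in edgeR, and for 5 it changed by 8 h. Over all genes fitted this held for 419 of 20326 at 3 h and 32 of 20377 at 8 h. Of the 162, *EPFL4* and 134 others had been called uninduced, from the same libraries. Values are the log2 difference at that time minus the uninduced one. *EPFL4* changed by 9.24 at 3 h and 9.28 at 8 h (adjusted p = 1.53e-06 and 1.31e-05, edgeR). At 3 h the cold and drought regulators *CBF1*, *CBF2* and *MYB15* changed by −7.55, −4.90 and −4.23. The transcription factors *WRKY53*, *WRKY46*, *ERF4*, *ERF5*, *STZ* and *ZAT12* changed by −1.18, −3.05, −1.69, −2.22, −2.39 and −2.31, and *JAZ1*, *TCH2* and *CML23* by −1.48, −1.41 and −2.94. *DIC2*, *PP2-B14*, *AT4G29780*, *NUDT21*, *PUB29*, *AT3G04210* and *AT5G42530* changed by −2.70, −2.10, −3.15, −2.67, −1.57, −1.47 and −1.90. *AT4G32020*, *HSPRO2* and *NRT1.1* changed by −1.01, −0.875 and −0.904. *ERF53* and *AT3G19680*, lower in the uninduced line, changed by 2.92 and 2.32. All 25 kept an adjusted p under 0.05 without WT replicate 4 at 3 h. At 8 h *WRKY53*, *AT2G43590* and *PUB29* changed by −4.20, −2.26 and −1.34, and *P5CS1* by 1.46.

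In 14 of 312 groups of 4 libraries 1 library lay far from the other 3. Chance gives about 1 in 20 groups, and the count is not above that share. In *XVE:EPFL4*, replicate 4 had 420 CPM of *HSPRO2* (the others 324 to 339), 5.57 CPM of *WOX4* (4.96 to 5.04) and 48.2 CPM of *AT4G13575* (42.4 to 42.6). Replicate 1 of that line had 60.1 CPM of *DFR* (the others 37.1 to 37.5) and 5.25 CPM of *CYCB1;1* (6.59 to 6.79), and replicate 3 had 8.57 CPM of *ACI1* (10 to 10.2). In WT, replicate 1 had 4.13 CPM of *EPFL1* (the others 3.00 to 3.03), 25.3 CPM of *EPFL9* (15.1 to 15.3), 152 CPM of *VSP2* (188 to 190) and 15.0 CPM of *XCP1* (27.4 to 29.4). Replicate 2 of WT had 209 CPM of *HSPRO2* (the others 281 to 292) and 33.2 CPM of *DCL2* (27.7 to 28), and replicate 4 had 5.52 CPM of *AT3G01410* (4.71 to 4.80) and 22.1 CPM of *AT4G29780* (13.0 to 14.5).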

How the results depend on the processing

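The difference in *EPFL4* kept its direction and its call in every alternative, with log2 fold changes of 1.68 to 2.07 when single libraries were left out. The 1965 calls became 2391 with DESeq2, 1955 with its size factors, 2001 without a filter and 396 with all 35 libraries in 1 fit, and 1166 to 1879 when 1 library was left out (1210 without replicate 4 of both groups). At 3 h, 1213 calls became 2323 with DESeq2, 306 in the 35-library fit and 12 to 5243 without 1 library (4239 without replicate 4 of both groups). At 8 h, 1 call became 63 with DESeq2 and 72 in the 35-library fit. The 270 genes called in the same direction at 3 h became 536 and 56 in these fits, 183 to 304 without 1 uninduced library and 700 without WT replicate 4 at 3 h, and at 8 h the 1 gene became 13 and 6. The causes were not tested. With the replicate number as a block there were 1435 uninduced calls, 382 at 3 h and 121 in the same direction. Deviations of same-numbered libraries were correlated at r = −0.147, 0.289, −0.228 and 0.0103 for replicates 1 to 4. The highest value of all pairs was 0.401, for *XVE:EPFL4* replicate 3 with WT replicate 1. Whether the numbers pair the libraries cannot be decided from so few libraries. Of 134 named called genes other than *EPFL4*, 90 kept their call in all alternatives but the 35-library fit. In that fit 75 of the 134 lost it. None reversed in any alternative. Genes with few counts in 1 group, such as *CBF1* and *ERF53*, have fold changes that depend on the prior count.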
